A study of Mus musculus with 6 samples.

Results

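Endothelial cells line blood vessels, and the 10 genes Cdh5, Pecam1, Kdr, Tek, Tie1, Flt1, Esam, Cldn5, Emcn and Egfl7 are widely used to mark them. The genes were chosen by name, as a list of endothelial markers, and all 10 were found among the 55487 genes counted in the embryonic mouse retina. Libraries were made from retinas of C57BL/6 embryos at embryonic day 16.5, with both eyes of an animal combined. Of the 6 libraries, 3 were labelled Foxp1 cKO (Foxp1 fl/fl, Six3-Cre, in which a Cre driven by Six3 sequence, active in the developing retina, acts on loxP-flanked Foxp1 alleles) and 3 were labelled control (Foxp1 fl/fl without Cre). All animals shared 1 litter and carried the loxP-flanked alleles. The series asks what loss of the forkhead transcription factor Foxp1 changes in the retina, and the comparison here is of the vascular genes in these libraries.

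Vascular endothelial growth factor (VEGF) acts on endothelial cells through the receptor tyrosine kinases encoded by Kdr (VEGFR2, the main signalling receptor) and Flt1 (VEGFR1, largely a trap for the ligand). Angiopoietins act through the receptor encoded by Tek, with Tie1 as its co-receptor, and cadherin, immunoglobulin and claudin proteins seal the contacts between the cells. The mouse retina has no vessels within its own layers before birth; vessels then lie in the hyaloid system on its inner side and in the choroid outside it. Kdr is also known to be expressed by neural progenitors of the mouse retina.

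The libraries held between 23707761 and 25714620 counts, so that 1 count was worth about 0.041 CPM (the count scaled to a common library size, with TMM factors that correct for library composition). Foxp1, the targeted gene, was at 72.4, 75.5 and 68.8 CPM in the cKO-labelled libraries, against 50.8, 41.1 and 46.2 CPM in the control-labelled ones, values given in the order of libraries 1, 2 and 3 here and below. This goes against the labels of a knockout (log2 fold change 0.65, edgeR adjusted p = 4.63e-05). The labelled sexes were female, male and male in the cKO-labelled libraries, and female, female and male in the control-labelled ones. The sex-linked genes of cKO-labelled library 2 and control-labelled library 2 also went against their labelled sex. Were the columns of both groups exchanged, number for number, these genes would match the labelled sex in 6 of 6 libraries, against 4 of 6 as labelled, and Foxp1 would be the lower in the libraries then named cKO. Whether the labels or columns were exchanged cannot be told from the files used here. Every direction below is that of the labels and would be turned round by such an exchange, which leaving out the 2 libraries, as is also done for the main results, does not address. In the authors' deposited table, named as cKO against control, the log2 fold change of Foxp1 is -0.60.

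Kdr was far above the other endothelial genes. It was at 282.6, 283.0 and 291.5 CPM in the cKO-labelled libraries, against 320.6, 335.2 and 311.1 CPM in the control-labelled ones. It supplied between 91.8% and 93.0% of the summed CPM of the 10 genes in each library. At the other end were 6 genes with means under 1 CPM (Pecam1, Cdh5, Esam, Tek, Tie1 and Emcn), which together had 321 counts over all 6 libraries. Cldn5, Egfl7 and Flt1 lay between, with means of 14.2, 4.90 and 3.40 CPM over the 6 libraries. The adhesion genes Cdh5, Pecam1 and Esam and the Tie receptor genes were thus near the limit of detection, and the level of the list was set by Kdr.

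**Figure D1:**
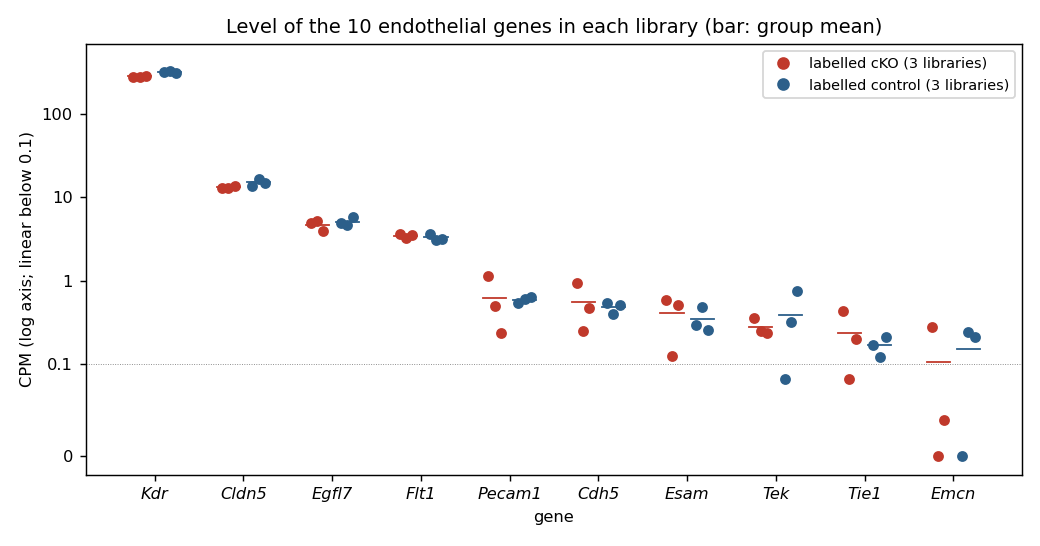
CPM of each of the 10 endothelial genes (points, 1 per library; short lines, group means) on a log axis that is linear below 0.1, with the cKO-labelled libraries left of the control-labelled ones. Kdr lies near 300 CPM in all libraries, and 6 genes have means under 1 CPM.

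Levels were compared between genes as CPM per kilobase of summed exon length. On this scale the order of the means over the 6 libraries was Kdr (33.7), Cldn5 (10.05), Egfl7 (1.37), Flt1 (0.252), Esam (0.131), Cdh5 (0.124), Pecam1 (0.0977), Tek (0.0709), Tie1 (0.0410) and Emcn (0.0236). The ranges over libraries of the first 4 genes did not overlap each other or those of the rest: 31.3 to 37.1 for Kdr, 9.07 to 11.8 for Cldn5, 1.09 to 1.61 for Egfl7 and 0.230 to 0.273 for Flt1. From Esam downwards each gene's range overlapped that of its neighbour. Among the 17275 genes that passed the filter on low counts, Kdr stood at percentile 91.7 of this level, Cldn5 at 69.2, Egfl7 at 28.5 and Flt1 at 6.96. The level of Kdr per kilobase was 133.8 times that of Flt1, the other VEGF receptor of the list, with a range of 114.9 to 161.6 over the libraries. It was 272.5 times that of Cdh5, with a range of 140.1 to 528.

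**Figure D2:**
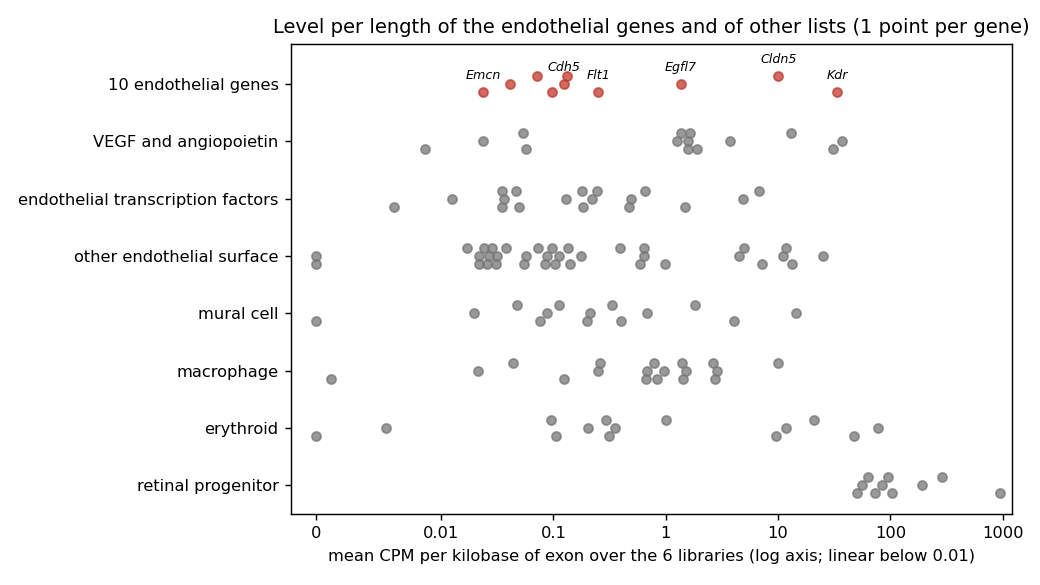
Mean CPM per kilobase of exon over the 6 libraries (log axis, linear below 0.01), 1 point per gene, for the 10 endothelial genes (red, top) and for 7 other lists (grey). Kdr (33.7) and Cldn5 (10.05) stand apart from Cdh5 (0.124) and Emcn (0.0236), and the retinal progenitor genes lie at the high end of the axis.

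The promoter windows of Kdr and Cldn5, whose libraries did not overlap between the labelled groups, are shown together, beside that of Flt1, the other VEGF receptor gene, whose libraries overlapped. The windows run from 250 bases before to 50 bases after the annotated start, from RefSeq (GRCm38.p6); Kdr lies at chr5:75978406-75978705, minus strand, Cldn5 at chr16:18776597-18776896, plus strand, and Flt1 at chr5:147725962-147726261, minus strand. Capitals mark the core letters of ETS factors, GGAA, and of forkhead factors such as Foxp1, TGTTT, on either strand.
Kdr: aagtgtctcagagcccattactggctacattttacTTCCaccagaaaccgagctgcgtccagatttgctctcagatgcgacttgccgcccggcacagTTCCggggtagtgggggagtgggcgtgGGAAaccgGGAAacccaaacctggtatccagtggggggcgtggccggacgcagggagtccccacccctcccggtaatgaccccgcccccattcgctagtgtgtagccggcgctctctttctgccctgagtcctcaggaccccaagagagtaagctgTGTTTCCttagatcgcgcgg
Cldn5: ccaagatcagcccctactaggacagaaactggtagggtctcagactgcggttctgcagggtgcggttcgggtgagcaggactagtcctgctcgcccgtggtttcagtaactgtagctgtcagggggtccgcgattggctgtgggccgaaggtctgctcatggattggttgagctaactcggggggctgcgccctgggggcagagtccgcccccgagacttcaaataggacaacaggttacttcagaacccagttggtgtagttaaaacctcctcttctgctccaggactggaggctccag
Flt1: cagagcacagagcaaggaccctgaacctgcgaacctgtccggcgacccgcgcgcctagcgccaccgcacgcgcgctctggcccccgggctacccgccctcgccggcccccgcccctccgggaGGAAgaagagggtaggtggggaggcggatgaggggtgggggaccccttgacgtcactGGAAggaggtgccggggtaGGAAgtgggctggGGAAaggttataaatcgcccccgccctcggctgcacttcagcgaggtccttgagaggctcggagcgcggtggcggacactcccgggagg
The Kdr window held GGAA 5 times and TGTTT 1 time, and 1 of the GGAA matches, on the other strand, shares letters with TGTTT. The Flt1 window held GGAA 4 times and no TGTTT, and the Cldn5 window held neither. Of 32851 promoter windows of the same length, 96.0% held GGAA and 50.5% held TGTTT. The longer ETS string AGGAAG was found 2 times in the Flt1 window and in neither of the others, against 35.4% of all windows, and the longer forkhead string TGTTTAC was in none of the windows of the 7 members matched, against 3.65% of all windows. Among the members whose windows are not shown, TGTTT was found 3 times for Emcn, 2 times for Tek and 1 time each in Egfl7 windows 1 and 2. It was in neither Egfl7 window 3 nor the Tie1 window. A match is a run of letters and not a shown binding site.

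Kdr (ENSMUSG00000062960, chromosome 5, 75932827 to 75978458, minus strand, mm10, protein-coding, 9030 bases of exon) was lower in all 3 cKO-labelled libraries than in any labelled control. It averaged 285.7 ± 5.02 CPM in the cKO-labelled libraries and 322.3 ± 12.1 CPM in the control-labelled ones (SD, n = 3 each). The log2 fold change was -0.17 with a standard error of 0.052, a difference of -11.4% with a 95% interval of -17.7% to -4.56%. Its edgeR quasi-likelihood p was 0.00263 before adjustment and 0.0911 after Benjamini-Hochberg adjustment over all genes, so it did not pass the threshold of 0.05. At that threshold 0.781% of all tested genes were called.

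The side of the threshold on which Kdr fell depended on the test and on 1 library. DESeq2 on the same counts gave a log2 fold change of -0.18 and an adjusted p of 0.00915. It called 3.28% of all 17275 genes. That share also counts genes to which DESeq2 gave no adjusted p, so its share among genes with one is higher. Without control-labelled library 3 the edgeR adjusted p of Kdr was 0.0443, in a fit that called 4.40% of genes. Without the 2 libraries whose sex-linked genes went against their labelled sex (the doubted libraries below), the edgeR log2 fold change of Kdr was -0.14. Its adjusted p was 0.738, in a fit that called 0.0516% of genes. Log2 fold changes across genes fell with exon length, with a Spearman correlation of -0.27 over 17251 genes, which are not independent replicates. The tested genes had a median exon length of 3922 bases, and once that trend was taken out of every library, the log2 fold change of Kdr was -0.12 (edgeR adjusted p = 0.294), in a fit that called 0.220% of genes. The authors' deposited table lists Kdr at a log2 fold change of 0.17 for cKO against control, of the opposite sign, with an adjusted p of 0.0258, while 8.97% of its genes with an adjusted p lie under 0.05. That table gives the other 9 genes no adjusted p, and of the other 6 tested here its sign was opposite for all but Pecam1.

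Flt1 (ENSMUSG00000029648, chromosome 5, 147561604 to 147726011, minus strand, 13504 bases of exon) was at 3.68, 3.24 and 3.51 CPM in the cKO-labelled libraries, against 3.68, 3.10 and 3.16 CPM in the control-labelled ones. The groups overlapped. The log2 fold change was 0.070 with a standard error of 0.17 (edgeR adjusted p = 0.890), and the 95% interval of the difference ran from -17.4% to 33.5%. Both VEGF receptor genes lie on the same chromosome, but their levels did not follow each other, with a Pearson correlation of -0.37 over the 6 libraries.

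The angiopoietin receptor Tek (ENSMUSG00000006386, chromosome 4, 94739289 to 94874976, plus strand) had 9, 6 and 6 counts in the cKO-labelled libraries, against 2, 8 and 18 in the control-labelled ones. Tie1 (ENSMUSG00000033191, chromosome 4, 118471191 to 118490061, minus strand) had 11, 2 and 5 counts in the cKO-labelled libraries, against 4, 3 and 5 in the control-labelled ones. Both receptors overlapped between the groups and fell under the filter on low counts, so that they were not tested. Emcn (ENSMUSG00000054690, chromosome 3, 137341067 to 137432185, plus strand), which encodes the surface sialomucin endomucin, had 7, 0 and 1 counts in the cKO-labelled libraries, against 0, 6 and 5 in the control-labelled ones, and was not tested either. A count of 0 allows a level of up to 0.125 CPM in cKO-labelled library 2 and 0.126 CPM in control-labelled library 1 (3 counts of the total, counting error only).

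Of the junction genes, Cdh5 (ENSMUSG00000031871, chromosome 8, 104101625 to 104144511, plus strand) encodes VE-cadherin, the adhesion protein of endothelial contacts. It had 24, 6 and 12 counts in the cKO-labelled libraries, against 13, 10 and 12 in the control-labelled ones. Pecam1 (ENSMUSG00000020717, chromosome 11, 106654217 to 106750628, minus strand), encoding the adhesion protein CD31, had 29, 12 and 6 counts in the cKO-labelled libraries, against 13, 15 and 15 in the control-labelled ones. Esam (ENSMUSG00000001946, chromosome 9, 37528078 to 37538319, plus strand), another immunoglobulin-family adhesion gene, had 15, 3 and 13 counts in the cKO-labelled libraries, against 7, 12 and 6 in the control-labelled ones. In all 3 genes the cKO-labelled libraries held both the highest and the lowest value, and the groups overlapped. In that order of genes, the log2 fold changes were 0.20, 0.08 and 0.25 with standard errors of 0.46, 0.46 and 0.53 (edgeR adjusted p = 0.882, 0.961 and 0.871). At these counts a difference was not detectable over a wide range: the 95% interval for Cdh5 ran from -40.3% to 122.4%. Without cKO-labelled library 1 the 3 log2 fold changes were -0.41, -0.69 and -0.094.

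Cldn5 (ENSMUSG00000041378, chromosome 16, 18776847 to 18778262, plus strand, 1416 bases of exon), encoding the tight junction protein claudin-5 of barrier-forming endothelium, was the most abundant junction gene of the list. It was at 12.8, 13.2 and 13.7 CPM in the cKO-labelled libraries, against 13.9, 16.8 and 15.0 CPM in the control-labelled ones. All 3 cKO-labelled libraries were lower than any labelled control, by a small margin. The log2 fold change was -0.20 with a standard error of 0.091 (edgeR adjusted p = 0.266, unadjusted p = 0.0377), a difference of -13.0% with a 95% interval of -23.7% to -0.861%. Without control-labelled library 2 it was -0.13 (edgeR adjusted p = 0.656), and without both doubted libraries -0.12 (edgeR adjusted p = 0.836). With the exon length trend removed it was -0.28 (edgeR adjusted p = 0.178). Per kilobase of exon Cldn5 averaged 10.05 CPM, beside 0.124 for Cdh5, and which cells supplied it was not tested.

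Egfl7 (ENSMUSG00000026921, chromosome 2, 26580014 to 26593120, plus strand), which encodes a secreted protein of the vessel wall, was at 4.93, 5.16 and 3.91 CPM in the cKO-labelled libraries, against 4.98, 4.67 and 5.78 CPM in the control-labelled ones. The groups overlapped, and the log2 fold change was -0.14 with a standard error of 0.15 (edgeR adjusted p = 0.710). Without cKO-labelled library 3 it was closer to 0, at -0.025. Egfl7 is the host gene of miR-126, a microRNA of endothelial cells whose mature sequence is shown, from RefSeq (GRCm38.p6, chr2:26591402-26591423, plus strand), because it marks the same transcript; capitals mark the seed, bases 2 to 8.
mmu-miR-126a-3p: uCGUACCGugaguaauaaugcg
The gene row Mir126a had 0 counts in all 6 libraries, and the antisense row Mir126b had 3 counts in all, in the control-labelled group. In libraries made from RNA depleted of ribosomal RNA, 0 counts do not show that the mature microRNA was absent. In the annotation Mir126a lies wholly within exonic sequence of Egfl7 (73 shared bases), and Egfl7 shares 264 exonic bases with Gm20532 on the same strand and 64 with Agpat2 on the other. The sources used here do not say how reads in such shared stretches were counted, so the Egfl7 values are uncertain to that extent.

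**Figure D3:**
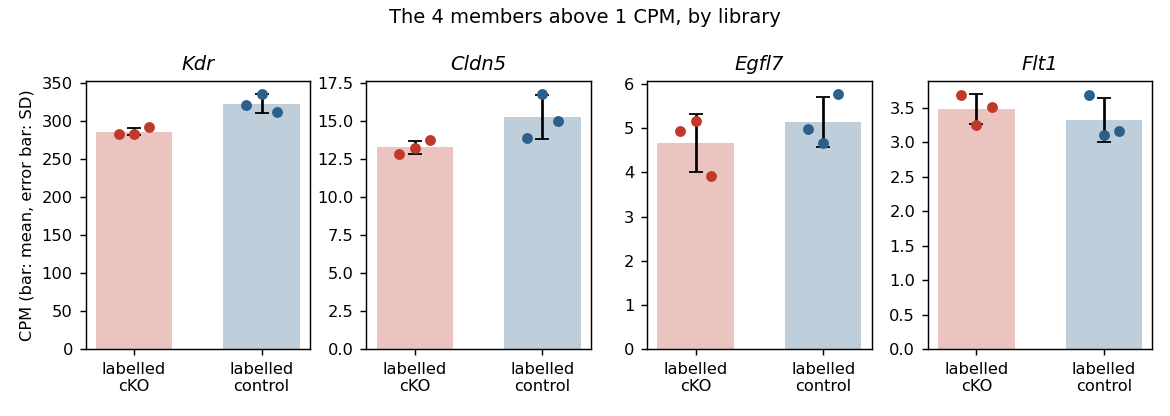
CPM of Kdr, Cldn5, Egfl7 and Flt1 in each library (points), with the mean (bar) and SD (error bar) of 3 cKO-labelled libraries, on the left, and 3 control-labelled ones, on the right. The groups are apart for Kdr and Cldn5 and overlap for Egfl7 and Flt1.

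Of the 10 genes, 7 passed the filter on low counts, and none of the 7 passed an edgeR adjusted p of 0.05. Unadjusted, 2 of them (Kdr and Cldn5) had a p under 0.05, as did 16.5% of all tested genes. DESeq2 called Kdr and gave the other 6 no adjusted p, nor many of the less abundant genes of the lists below. The alternative limma-voom, which called 0.585% of all genes, called none. The groups did not overlap for Kdr and Cldn5, both lower in the cKO-labelled libraries, as was the case for 9.30% of all tested genes in that direction. The median log2 fold change of the 7 was 0.070, beside 0.00073 for all tested genes, while the summed CPM of the 10 genes was lower in the cKO-labelled libraries (307.8, 305.8 and 314.3, against 344.8, 361.9 and 337.6 in the control-labelled ones). The median and the sum thus differ in sign. Without Kdr the sums overlapped between the groups and their mean was still the lower in the cKO-labelled libraries (23.6 against 25.8 CPM), at 25.2, 22.8 and 22.8 CPM in the cKO-labelled libraries, against 24.2, 26.7 and 26.5 CPM in the control-labelled ones. In such bulk samples, fewer cells of a type and less RNA per cell cannot be told apart.

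**Figure D4:**
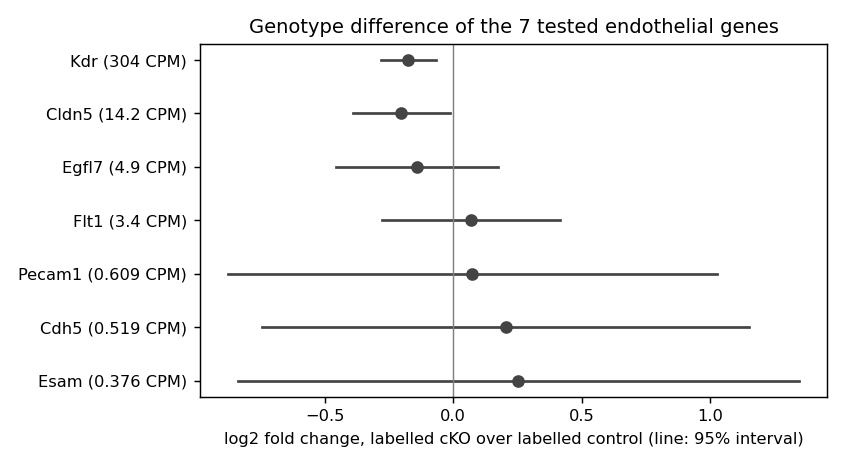
Log2 fold change of labelled cKO over labelled control (points) with its 95% interval (lines) for the 7 tested genes, ordered by mean CPM. The intervals of Kdr and Cldn5 lie below 0 before adjustment for multiple tests, and those of the 3 genes under 1 CPM are wide.

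Kdr and Cldn5 were also the pair of tested genes whose log2 levels followed each other most closely, with a Pearson correlation of 0.88 over the 6 libraries, in which the difference between the groups takes part. The other pairs among the 7 genes were mixed. Over all 21 pairs, 12 were positive, and the correlations ran from -0.71 (Flt1 with Cldn5) to 0.88, with a median of 0.071. Cdh5 correlated with Esam (0.68), Pecam1 (0.66) and Flt1 (0.66), but not with Egfl7 (-0.00025), Kdr (-0.16) or Cldn5 (-0.30). A common rise and fall of the list was thus not seen. At the few counts of Cdh5, Pecam1 and Esam, low correlations cannot show that these genes moved apart. The 10 protein-coding genes whose log2 levels were most like the mean standardised profile of the 7 genes were Cpne2, Nfic, Iffo2, Trpm6, Nqo1, Timp2, Timp3, Strn, Nop14 and Tmem117, with correlations of 0.976 to 0.988 over the 6 libraries. None of these is in the vascular lists, and 3 of the 7 genes in that profile had means under 1 CPM. The 10 were picked as the highest among all tested protein-coding genes. Over 6 libraries, correlations this high can come from the picking alone.

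The 6 genes under 1 CPM were summed to follow the endothelial cells apart from Kdr; they were picked by their level. The sum was 95, 29 and 43 counts in the cKO-labelled libraries, against 39, 54 and 61 counts in the control-labelled ones. The cKO-labelled library 1 stood highest, and it was the highest library for 5 of the 6 genes, Tek being the exception. The same library was highest for the erythroid list of 14 genes found (haemoglobins and other red cell genes), with summed CPM of 245.2, 200.1 and 172.2 in the cKO-labelled libraries, against 132.7, 147.3 and 210.2 in the control-labelled ones. Across the other libraries the endothelial and erythroid sums did not keep the same order, since cKO-labelled library 2 was lowest for the endothelial sum, while its erythroid sum was above those of control-labelled libraries 1 and 2. Over genes with a count, cKO-labelled library 1 was highest for 10 of 13 erythroid, 6 of 13 mural and 8 of 14 mesenchyme genes, and for 2 of 18 macrophage and 0 of 14 lens genes. The smooth muscle gene Acta2 had 65, 9 and 41 counts in the cKO-labelled libraries, against 17, 54 and 37 in the control-labelled ones, and the collagen gene Col3a1 of the mesenchyme 447, 130 and 200, against 118, 356 and 294. As with the endothelial sum, both were highest in cKO-labelled library 1, and they were low in cKO-labelled library 2 and control-labelled library 1. The most abundant gene of each list peaked elsewhere. The mural gene Notch3 was highest in control-labelled library 1 (140.5 CPM), as was the mural sum (173.4 CPM). The mesenchyme gene Col1a1 was highest in cKO-labelled library 3 (99.75 CPM), as was the mesenchyme sum (161.2 CPM). The part of these other cells in the endothelial values was not tested.

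**Figure D5:**
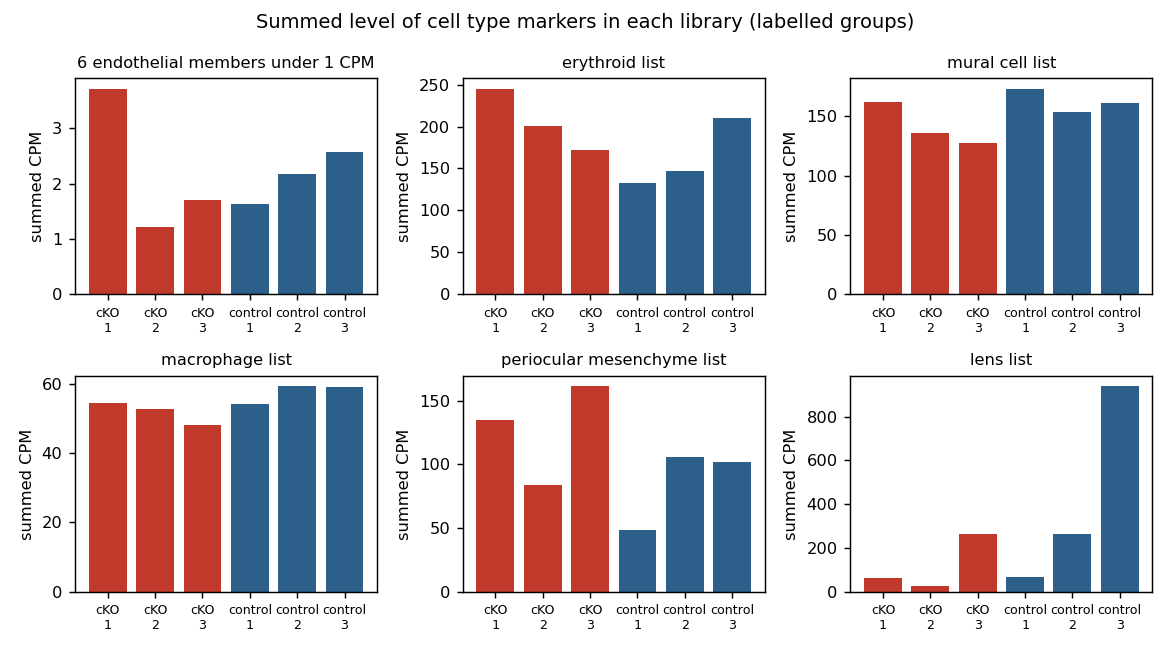
Summed CPM per library of the 6 endothelial genes under 1 CPM and of 5 marker lists, with the cKO-labelled libraries (red) left of the control-labelled ones (blue). The cKO-labelled library 1 is highest for the 6 endothelial genes and the erythroid list, and the lens list is highest in control-labelled library 3.

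Markers of other cell types that the dissected tissue could hold were also summed. Mural cell genes (pericytes and smooth muscle) summed to between 127.4 and 161.8 CPM in the cKO-labelled libraries and between 153.7 and 173.4 CPM in the control-labelled ones, most of it Notch3 (108.3 ± 12.6 against 126.4 ± 12.6 CPM, SD, n = 3 each). Of the 14 mural genes, 8 had a mean under 1 CPM, and the pericyte gene Higd1b had no count in any library. Which cells supplied Notch3, and so most of this sum, was not tested. Macrophage genes summed to between 48.2 and 54.5 CPM in the cKO-labelled libraries, against between 54.2 and 59.3 CPM in the control-labelled ones. Genes of the periocular mesenchyme summed to between 83.7 and 161.2 CPM, against between 48.8 and 105.8 CPM, and lens genes to between 24.4 and 264.0 CPM, against between 67.2 and 937.6 CPM, in the same order of groups. None of the tested genes of these 5 lists (the erythroid list included) passed in edgeR, DESeq2 or limma-voom, where edgeR tested 10 mural, 15 macrophage, 9 erythroid, 11 mesenchyme and 10 lens genes and gave an unadjusted p under 0.05 to 1, 1, 0, 2 and 0 of them.

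Further genes of the vessel were read from 6 lists of 104 genes, of which 70 passed the filter and 49 had a mean under 1 CPM. In edgeR 1 of the 70 was called, and it was lower in the cKO-labelled libraries; 14 had an unadjusted p under 0.05, and the median log2 fold change was -0.044. Over all tested genes, 0.781% were called and 16.5% had an unadjusted p under 0.05. The groups did not overlap for 9.30% of all tested genes with the cKO-labelled libraries lower, and for 10.8% with them higher. The gene called was Adgra2 (Gpr124), a co-receptor that endothelial cells of the brain need to respond to Wnt7 ligands. Per kilobase of exon its mean was 5.23 CPM, beside 0.124 for Cdh5, and which cells supplied it was not tested. Adgra2 was at 26.8, 24.4 and 28.9 CPM in the cKO-labelled libraries, against 34.6, 34.0 and 32.7 CPM in the control-labelled ones. The groups did not overlap (log2 fold change -0.34, standard error 0.073, edgeR adjusted p = 0.0340). The call was lost without cKO-labelled library 2 (edgeR adjusted p = 0.309), without control-labelled library 1 (0.0905), without control-labelled library 2 (0.121) and without both doubted libraries (0.714), at log2 fold changes of -0.33 to -0.27. With no robust estimation the adjusted p was 0.121, and with the length trend removed it was 0.0542. DESeq2 gave Adgra2 no adjusted p, and its 1 call among the 104 genes was Lrp6 of the same list. The authors' deposited table has Adgra2 at 0.32 for cKO against control, again of the opposite sign.

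The remaining 11 of 12 genes tested in that Norrin and Wnt7 barrier list did not pass in edgeR. The Wnt co-receptor gene Lrp6 was nearest, and passed in DESeq2 (adjusted p = 0.0115), at 134.1 ± 5.66 CPM in the cKO-labelled libraries and 156.9 ± 12.8 CPM in the control-labelled ones (SD, n = 3 each; log2 fold change -0.23, edgeR adjusted p = 0.0572). Lrp6 averaged 10.6 CPM per kilobase of exon, and which cells supplied it was not tested either. Fzd4 and Lrp5, the receptors of the retinal vascular signal Norrin, are in the same list. Fzd4 was at 7.02 ± 0.248 CPM in the cKO-labelled libraries and 8.20 ± 0.680 CPM in the control-labelled ones, with no overlap (SD, n = 3 each; log2 fold change -0.22, edgeR adjusted p = 0.350). Lrp5 was at 229.0 ± 7.61 against 238.6 ± 9.26 CPM, with overlap (SD, n = 3 each).

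Of the ligands of the VEGF receptors, Vegfa and Vegfb were the most abundant. Vegfa was at 132.0 ± 15.0 CPM in the cKO-labelled libraries and 133.7 ± 18.7 CPM in the control-labelled ones (SD, n = 3 each; log2 fold change -0.018, edgeR adjusted p = 0.974). Vegfb was at 58.9 ± 1.60 against 59.9 ± 5.45 CPM, and the semaphorin receptor Plxnd1 at 92.0 ± 5.95 against 97.5 ± 7.995 CPM (SD, n = 3 each). The less abundant ligand Vegfc was at 3.47 ± 0.196 against 4.31 ± 0.258 CPM, with no overlap (SD, n = 3 each; edgeR adjusted p = 0.323), and Pgf at 3.87 ± 0.873 against 3.49 ± 0.649 CPM. Vegfd was too low to be tested. Nrp1, a co-receptor of VEGF, was at 36.0 ± 1.69 against 36.6 ± 0.939 CPM (SD, n = 3 each). None of the 11 tested genes of this VEGF and angiopoietin list passed in edgeR or limma-voom, and 1 had an unadjusted edgeR p under 0.05. DESeq2 called none, but it gave an adjusted p only to Vegfa, Vegfb and Plxnd1.

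Transcription factors of endothelial cells were largely near the floor. Of 18 listed, 13 had a mean under 1 CPM, and Erg and Sox17, which mark endothelium in most tissues, had 15 and 5 counts over the cKO-labelled libraries and 3 and 4 counts over the control-labelled ones. None of the 10 tested passed in edgeR or limma-voom, with 1 at an unadjusted edgeR p under 0.05. DESeq2 gave none of the 10 an adjusted p, so it could not call them. The most abundant were Ets2 (26.4 ± 1.91 against 29.5 ± 0.821 CPM) and Lmo2 (15.5 ± 0.771 against 13.9 ± 1.41 CPM, SD, n = 3 each, cKO-labelled first). Of 35 other surface and junction genes, 23 had a mean under 1 CPM. None of the 19 tested passed in edgeR or limma-voom, and 4 had an unadjusted edgeR p under 0.05. DESeq2 called none, but it gave an adjusted p only to Jam2, Tjp1, Podxl, Sox13 and Shank3. Cd34 had 66 counts over the cKO-labelled libraries and 55 over the control-labelled ones. Plvap, a gene of fenestrated endothelium, had 3, 4 and 9 counts in the cKO-labelled libraries, against 10, 15 and 10 in the control-labelled ones, with no overlap (log2 fold change -1.16, standard error 0.52, edgeR adjusted p = 0.263). Clec14a, an endothelial surface lectin gene, went the other way, with 16, 17 and 13 counts against 9, 4 and 10, also with no overlap (log2 fold change 0.94, standard error 0.45, edgeR adjusted p = 0.302). Of the 19 tested surface genes, 2 were lower and 1 was higher without overlap, beside 9.30% and 10.8% of all tested genes.

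Genes of arteries, veins and tip cells were mostly abundant, and several of them are also known to act in neurogenesis. Notch1 was at 682.4 ± 42.4 CPM in the cKO-labelled libraries and 839.2 ± 119.0 CPM in the control-labelled ones, Efnb2 at 245.4 ± 4.499 against 246.7 ± 14.1 CPM, and Dll4, a Notch ligand, at 89.8 ± 2.83 against 94.1 ± 5.74 CPM (SD, n = 3 each). Notch4, a Notch receptor gene of endothelium, was at 14.5 ± 1.20 against 11.9 ± 0.585 CPM (SD, n = 3 each), higher in all cKO-labelled libraries (log2 fold change 0.28, edgeR adjusted p = 0.126). Nr2f2 and Ephb4 were lower in all cKO-labelled libraries. Nr2f2 was at 57.2 ± 3.575 against 64.95 ± 2.55 CPM and Ephb4 at 41.65 ± 0.365 against 47.0 ± 3.065 CPM (SD, n = 3 each, edgeR adjusted p = 0.0912 and 0.147). Of the 12 tested genes, 10 had a negative log2 fold change. Without overlap 2 were lower and 1 was higher, beside 9.30% and 10.8% of all tested genes. None of the 12 tested passed in edgeR or limma-voom, and 4 had an unadjusted edgeR p under 0.05, beside the 16.5% of all tested genes. DESeq2 called none, but it gave an adjusted p only to Dll4, Notch1, Hey1, Efnb2, Ephb4 and Nr2f2. The barrier transporters Slc2a1 (940.0 ± 39.1 against 935.8 ± 67.7 CPM) and Slc7a5 (140.1 ± 5.86 against 137.8 ± 7.31 CPM, SD, n = 3 each, cKO-labelled first) were close. None of the 7 tested in that list passed in edgeR or limma-voom or had an unadjusted edgeR p under 0.05. DESeq2 called none, but it gave an adjusted p only to Slc2a1 and Slc7a5. Per kilobase of exon, Slc2a1 was at 267.5 CPM and Slc7a5 at 37.5 CPM, beside 33.7 for Kdr, 10.05 for Cldn5 and 0.124 for Cdh5.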

How the data were processed

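Retinal RNA of 6 embryos (3 labelled cKO, 3 labelled control) was depleted of ribosomal RNA and sequenced in directional, paired libraries, per the labels' protocols. The build mm10 and the tools DESeq2 1.32.0, featureCounts 1.5.1, STAR 2.7.6a and cutadapt 2.8 are named per the submitters' processing notes, without settings or strandedness. The authors deposited raw counts per gene. The authors' deposited table holds a mean normalized count (a signal value), a test statistic (score), p-values, and log2 fold changes with errors. It has no adjusted p-value for 13487 of its 21080 genes, among them every member except Kdr.

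Counts of 17275 genes kept by filterByExpr were compared in edgeR 4.0.16 (R 4.3.3; TMM, genotype alone, robust quasi-likelihood, Benjamini-Hochberg over all genes, threshold 0.05). Standard errors were derived from the F statistics; intervals are at 95%. Names came from the deposited table or, for genes not in it, GENCODE M21, and positions and exon lengths from GENCODE M21. Levels and sums in CPM used TMM factors. Log2 levels for correlations used CPM + 0.5. DESeq2 1.42.0 and limma 3.58.1 (voom) were alternatives, with other normalizations and filters, labelled sex, a replicate block, exon length offsets (lowess span 0.3) and left-out libraries. Scripts were tested on simulated counts. For pairs of libraries of 1 group, chi-square over its degrees of freedom was 7.39 to 12.5, above sampling noise.

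All 10 members were described. From the other lists, genes past the threshold, otherwise the most abundant (up to 4), were to be named, and not every one is printed. Erg, Sox17, Cd34, Plvap, Clec14a, Notch4, Vegfc, Vegfd and Pgf were added with their values in view. So were Acta2, Col3a1, Higd1b, Fzd4, Ndp, Tspan12, Ephb4 and Nrp2. The members and lists were chosen with earlier results of these data known. Each library is from its own animal, as the labels' protocols state. Of the retinal progenitor list 0 of 10 tested genes, and of the retinal neuron list 2 of 12 (Prox1 and Tfap2b, lower in the cKO-labelled libraries), passed in edgeR, where 0.781% of all genes did; Prox1 lost its call in 6 of 17 alternatives and Tfap2b in 7 of 17, both without the doubted libraries (adjusted p = 0.714). None passed in the lymphatic (5 tested), pigment epithelium (10), skeletal muscle (10) or astrocyte (5) lists.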

Additional observations from a re-analysis of the deposited data

How the results depend on the processing

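The number of endothelial genes past the threshold was 0 in edgeR and 1, Kdr in each case, with DESeq2, with the replicate block (which called 6.16% of all genes) and without control-labelled library 3; over the fits that left out 1 library it ran from 0 to 1. Adjusted over genes of at least 1 CPM alone, a setting chosen after seeing the data, it was 0 (Kdr adjusted p = 0.0780, with 1.30% of genes called). Kdr, Cldn5, Egfl7 and Flt1 kept their sign in all 17 alternatives, with log2 fold changes of -0.20 to -0.12 for Kdr. Pecam1 changed sign with limma-voom (-0.19) and with the replicate block (-0.043). Over the fits that left out 1 library, Cdh5 ran from -0.41 to 0.54, Pecam1 from -0.69 to 0.47 and Esam from -0.094 to 0.67, the lowest value of each without cKO-labelled library 1.

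Over all genes, 135 passed in the fit reported above, 742 with no filter on low counts, 83 with a filter at 1 CPM, 566 with DESeq2, 10 with no robust estimation, 1065 with the replicate block, 38 with the exon length trend removed and 9 without the 2 doubted libraries, and between 19 and 778 with 1 library left out; the cause was not tested beyond the smaller number of libraries or genes that some of these fits have. The median log2 fold change of the tested members was 0.070, and was -0.034 with no filter, -0.15 with the filter at 1 CPM, -0.14 with limma-voom, -0.043 with the replicate block and -0.18 without cKO-labelled library 1. Same-numbered libraries shared only a number: their deviations from the group means correlated by 0.49, -0.23 and 0.58, and 4 of 6 libraries correlated best with their own number. Fewer than 100 counts in all for each of the 6 least abundant members limit what can be seen of them.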
